A study of Mus musculus with 15 samples.

Results

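Oocytes of 26-day-old (d26) mice that matured in the animal were compared with oocytes that matured in culture. The comparison holds 5 of the 15 arrays of the series: 2 arrays of MII oocytes matured in vivo and 3 arrays of MII oocytes matured in vitro, chosen by the age and maturation given in their labels. All donors were B6D2F1 females, a hybrid strain, that received pregnant mare serum gonadotropin (PMSG) to stimulate their follicles. The labels call d26 females peripubertal. For the in vivo group, human chorionic gonadotropin was given 48 h after PMSG to trigger maturation and ovulation. For the in vitro group, oocytes still at the germinal vesicle (GV) stage were taken from the ovary 48 h after PMSG and kept for 16 h in Gmat medium. Cumulus cells were taken off with hyaluronidase in both groups, and each array carried poly(A) RNA from a pool of 150 oocytes. The other arrays used beside them hold adult oocytes, 7 to 8 weeks old, as in vivo MII (n = 3), in vitro MII (n = 2) and GV (n = 2), and d20 in vitro MII oocytes (n = 3).

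MII is the stage at which the egg waits for the sperm, arrested on a metaphase spindle. Transcription is silent by the time the oocyte resumes meiosis, so its transcripts at MII are those stored during growth, less those shed on the way. Stored transcripts are deadenylated and degraded, or given longer poly(A) tails and translated, in an ordered program. The maturing oocyte receives signals from cumulus cells in the follicle, and culture outside the follicle is known to leave oocytes less able to support development.

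The values are Affymetrix MAS5 intensities, quantile normalized over the 15 arrays on the log2 scale. This scale is called the level below, so a difference of 1 is a doubling of signal. The 5 arrays differed in quality. Of brightness and the control ratios below, only the Gapdh ratio did not overlap between the groups. A deposited intensity of 200 was exceeded by 4950 and 6557 probe sets on the in vivo arrays, against 5675, 2615 and 3042 on in vitro replicates 1, 2 and 3. In vitro replicates 2 and 3 are called dim below. The ratio of the 3' to the 5' Gapdh control probe set, a measure of how far complementary RNA reached, was 82.3 and 68.0 in vivo, against 12.6, 16.5 and 26.8 in vitro. Its 5' intensity was only 0.760 and 3.99 in vivo, against 22.8, 0.895 and 1.89 in vitro, so these ratios are imprecise. The same ratio for Actb was 16.3 and 17.3 in vivo, against 24.9, 4.56 and 7.94 in vitro. Pearson correlations over probe sets were 0.89 between the in vivo arrays and 0.81, 0.88 and 0.81 between pairs of in vitro arrays. The highest correlation among the 5 arrays, 0.92, joined in vivo replicate 2 and in vitro replicate 1.

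Oocyte identity was clear in both groups. The 19 oocyte marker genes with a probe set made up 0.793% to 0.835% of an array's summed intensity in vivo, against 0.667% to 0.806% in vitro. Cumulus and granulosa markers summed to 0.00694% and 0.00928% of it in vivo, against 0.00765% to 0.0104% in vitro. Their 18 measured genes had 12 above the filter level of 3.07 in vivo, against 10 in vitro. Of 18 cumulus and granulosa genes 8 had a difference above 0. Fst, follistatin, was at 4.99 and 4.69 in vivo, against -0.11, 1.58 and 1.06 in vitro. Inhba and Slc38a3 were also higher in vivo without overlap, with differences of 2.26 and 1.29. Nr5a2, Inha and Amhr2 were lower in vivo without overlap, with differences of -0.75, -0.83 and -1.53. The oviduct markers summed to 0.0370% and 0.0506% in vivo, against 0.0289% to 0.0392% in vitro. Cdh1, an adhesion gene that oocytes express as well, was at a level near 11.9 and 11.6 in vivo, against 11.6, 11.6 and 11.2 in vitro. A difference above 0 was seen in 7 of the 11 measured oviduct genes. Foxj1 and Tppp3 were higher in vivo without overlap, by 2.06 and 2.41, at low levels. Dnah5 differed by -2.19 without overlap, and Krt8 by -1.53 with overlap. The genes of cumulus expansion summed to 0.0597% and 0.0844% in vivo, against 0.0720% to 0.0943% in vitro, mostly through Rgs2, a regulator of G protein signalling, at 12.6 and 12.3 in vivo, against 12.6, 12.6 and 12.5 in vitro. Of the 15 measured expansion genes 11 were above the filter level in vivo, against 7 in vitro. Ptx3, which stabilizes the expanded cumulus matrix, was at 4.85 and 3.96 in vivo, against 0.98, 0.41 and 2.58 in vitro. Tnfaip6, a matrix protein too, differed by 2.48, and its groups overlapped. Of the 15 expansion genes 9 had a difference above 0, while Runx1 differed by -2.13 and Ereg by -1.28. The groups of Fst and Ptx3 thus did not overlap, at low levels. Leukocyte and erythrocyte markers summed to 0.00191% and 0.00224% in vivo, against 0.00196% to 0.00379% in vitro, and theca, stroma and endothelial markers to 0.00214% and 0.00289% in vivo, against 0.00188% to 0.00323% in vitro. No probe set of any list was at 0, because the lowest deposited value of all was 0.0425. What part these markers or the quality measures had in the results was not tested.

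Maturation in vivo left 9 of 22519 probe sets higher than maturation in vitro, which is 0.0400%, and left 0 lower, by limma with an adjusted p below 0.05. They represent 7 genes by the probe set with the highest mean (0.0582% of 12028 genes), Tm2d1, Slc35b3, Elobl, Ube2t, Kpna2, Mtx2 and Bicd2, and also Psma5 by its second probe set and 1 probe set without a gene name. The rises ran from 1.59 to 3.61. The count depended on the processing: it was 0 with the values as deposited, with quantile normalization over the 5 d26 arrays, with those arrays fitted alone and without an intensity trend, and it was 36 with median scaling, 48 with array weights and 16 with array brightness as a covariate. Over the 28 settings tried, the unnamed probe set lost its call in 6, Psma5, Slc35b3 and Tm2d1 in 8 each, Ube2t in 9, Elobl and Kpna2 in 12 each, Mtx2 in 16 and Bicd2 in 21. At an unadjusted p below 0.05, 928 probe sets were higher and 603 lower, and among genes 4.52% were higher and 2.75% lower. In pooled oocytes, fewer transcripts in every oocyte and fewer oocytes carrying them cannot be told apart. Because the arrays carried poly(A) RNA, shorter poly(A) tails cannot be told from fewer transcripts either. Whether pools of a group came from different females is not in the labels, and the p-values then speak only for the spread among these arrays, some of which may be technical.

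The promoter windows of some of these genes are shown first, so that their starts can be set side by side. A window runs from 250 bases before to 50 after the RefSeq start in GRCm38.p6, on the gene's own strand, with the motif CCAAT or its reverse complement ATTGG in capitals. The motif was chosen after the windows had been read, so its copies in them are no test of a control that these genes share. Of the 8 called gene symbols, 7 had a window in the table, and Ube2t, Kpna2 and Bicd2 are shown because their windows held at least 2 copies. Mki67, among the genes lower in vivo that did not pass, is shown beside them because it held 3 copies as well.
Ube2t (chr1:134962315-134962614, plus strand): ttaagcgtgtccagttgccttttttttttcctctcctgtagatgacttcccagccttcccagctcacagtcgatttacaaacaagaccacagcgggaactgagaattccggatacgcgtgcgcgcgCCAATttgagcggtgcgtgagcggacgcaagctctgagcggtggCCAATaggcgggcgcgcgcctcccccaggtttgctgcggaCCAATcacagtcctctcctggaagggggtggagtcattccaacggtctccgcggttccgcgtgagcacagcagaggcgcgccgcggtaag
Kpna2 (chr11:106999476-106999775, minus strand): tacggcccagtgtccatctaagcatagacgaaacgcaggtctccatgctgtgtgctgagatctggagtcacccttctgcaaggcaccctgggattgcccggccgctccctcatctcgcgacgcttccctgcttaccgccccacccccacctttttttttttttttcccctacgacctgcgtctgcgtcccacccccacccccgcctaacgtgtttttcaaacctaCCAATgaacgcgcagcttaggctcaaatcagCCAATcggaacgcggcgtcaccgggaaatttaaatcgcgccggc
Bicd2 (chr13:49341299-49341598, plus strand): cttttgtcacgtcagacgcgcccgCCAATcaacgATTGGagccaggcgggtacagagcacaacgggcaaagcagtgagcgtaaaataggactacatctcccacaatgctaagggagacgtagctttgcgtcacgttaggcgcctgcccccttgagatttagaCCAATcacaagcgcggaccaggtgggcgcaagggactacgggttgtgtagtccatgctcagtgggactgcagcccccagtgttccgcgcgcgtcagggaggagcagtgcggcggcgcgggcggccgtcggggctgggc
Mki67 (chr7:135716330-135716629, minus strand): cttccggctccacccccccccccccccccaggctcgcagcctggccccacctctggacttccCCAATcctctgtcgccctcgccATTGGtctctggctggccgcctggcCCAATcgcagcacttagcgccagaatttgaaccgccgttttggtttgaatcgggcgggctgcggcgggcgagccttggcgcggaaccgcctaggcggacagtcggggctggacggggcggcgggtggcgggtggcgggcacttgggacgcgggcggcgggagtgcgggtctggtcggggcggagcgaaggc

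CCAAT is the letter pattern bound by the factor NF-Y at many cell cycle promoters, as general background. Counted from 1 at the 5' end of the window, the copies of Ube2t began at bases 127, 171 and 211, those of Kpna2 at 226 and 257, and those of Bicd2 at 25, 35 and 163. Slc35b3 had 1 copy in one of its windows, while Elobl, Mtx2 and Psma5 had none. Over all 32851 windows of the table, 37.4% held at least 1 copy on either strand, 11.7% at least 2 and 3.37% at least 3. These are letter matches only, and say nothing of whether a factor is bound or of why levels differed between the groups.

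Ube2t and Psma5 act in the ubiquitin pathway. Ube2t, the ubiquitin-conjugating enzyme that modifies FANCD2 in crosslink repair, was at 11.25 and 11.24 in vivo, against 8.31, 9.34 and 8.24 in vitro. Both in vivo arrays lay above all 3 in vitro arrays, and the dim replicate 2 was the highest in vitro array. The rise was 2.61 (SE 0.38, limma adjusted p = 0.0225), or 6.12-fold. Before normalization its deposited intensities were 2453 and 3505 in vivo, against 364, 188 and 104 in vitro, which did not overlap either. Psma5, an alpha ring subunit of the proteasome core, rose by 2.32 (SE 0.32, limma adjusted p = 0.0201) on one probe set, at 8.99 and 9.16 in vivo, against 6.93, 6.51 and 6.84 in vitro. Its brightest probe set was at 10.96 and 11.06 in vivo, against 8.78, 9.88 and 8.57 in vitro, with a difference of 1.93 that did not pass (limma adjusted p = 0.0938). The tested probe sets of Psma5 thus both lay higher in vivo without overlap, and only the dimmer of the pair passed. Another Psma5 probe set, too dim to be tested, differed by -0.95, and its groups overlapped. Elobl, annotated as elongin B like after the adaptor of cullin ligases, was at 10.62 and 11.21 in vivo, against 8.91, 9.49 and 9.19 in vitro. It rose by 1.72 (SE 0.25, limma adjusted p = 0.0225), with no overlap.

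Kpna2 and Bicd2 carry cargo within the cell. Kpna2, an importin alpha that brings proteins with a nuclear localization signal to the nucleus, was at 10.72 and 11.33 in vivo, against 8.82, 9.32 and 8.95 in vitro. It rose by 1.99 (SE 0.29, limma adjusted p = 0.0235), 3.98-fold, and the in vivo arrays differed more from each other than the in vitro arrays did. Bicd2, an adaptor that links cargo to the dynein motor, was at 10.42 and 10.37 in vivo, against 8.64, 9.20 and 8.59 in vitro. Its rise of 1.59 (SE 0.25, limma adjusted p = 0.0453) was the smallest of the 9. The other tested Bicd2 probe sets were dimmer and did not pass: their differences were 0.92, 0.48, 0.76 and 0.58, with adjusted p from 0.799 to 0.902. The Bicd2 call therefore rests on a single probe set of several, and it ended in 21 of 28 settings.

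Mtx2, Slc35b3 and Tm2d1 are membrane proteins. Mtx2, a metaxin of the mitochondrial outer membrane that takes part in protein import, was at 6.61 and 6.70 in vivo, against 3.01, 2.14 and 3.99 in vitro. Its rise of 3.61 (SE 0.56, limma adjusted p = 0.0348) was the largest of the 9 called, though 2 of the 3 in vitro arrays lay at or below the filter level of 3.07, so its size is imprecise. Slc35b3, a Golgi transporter of the sulfate donor PAPS, was at 9.94 and 10.09 in vivo, against 7.48, 7.45 and 7.56 in vitro. The arrays of each group lay close together, and the rise was 2.52 (SE 0.34, limma adjusted p = 0.0201). Tm2d1, a transmembrane protein described as binding amyloid beta peptide, was at 9.06 and 9.64 in vivo, against 6.43, 6.95 and 6.27 in vitro. It rose by 2.80 (SE 0.36, limma adjusted p = 0.0192), and its second tested probe set differed by 1.26 in the same direction without passing (adjusted p = 0.705). A probe set that the gene table does not name had the smallest p. It was at 10.58 and 10.69 in vivo, against 6.85, 8.08 and 7.14 in vitro, and rose by 3.28 (SE 0.37, limma adjusted p = 0.00697).

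**Figure D1:**
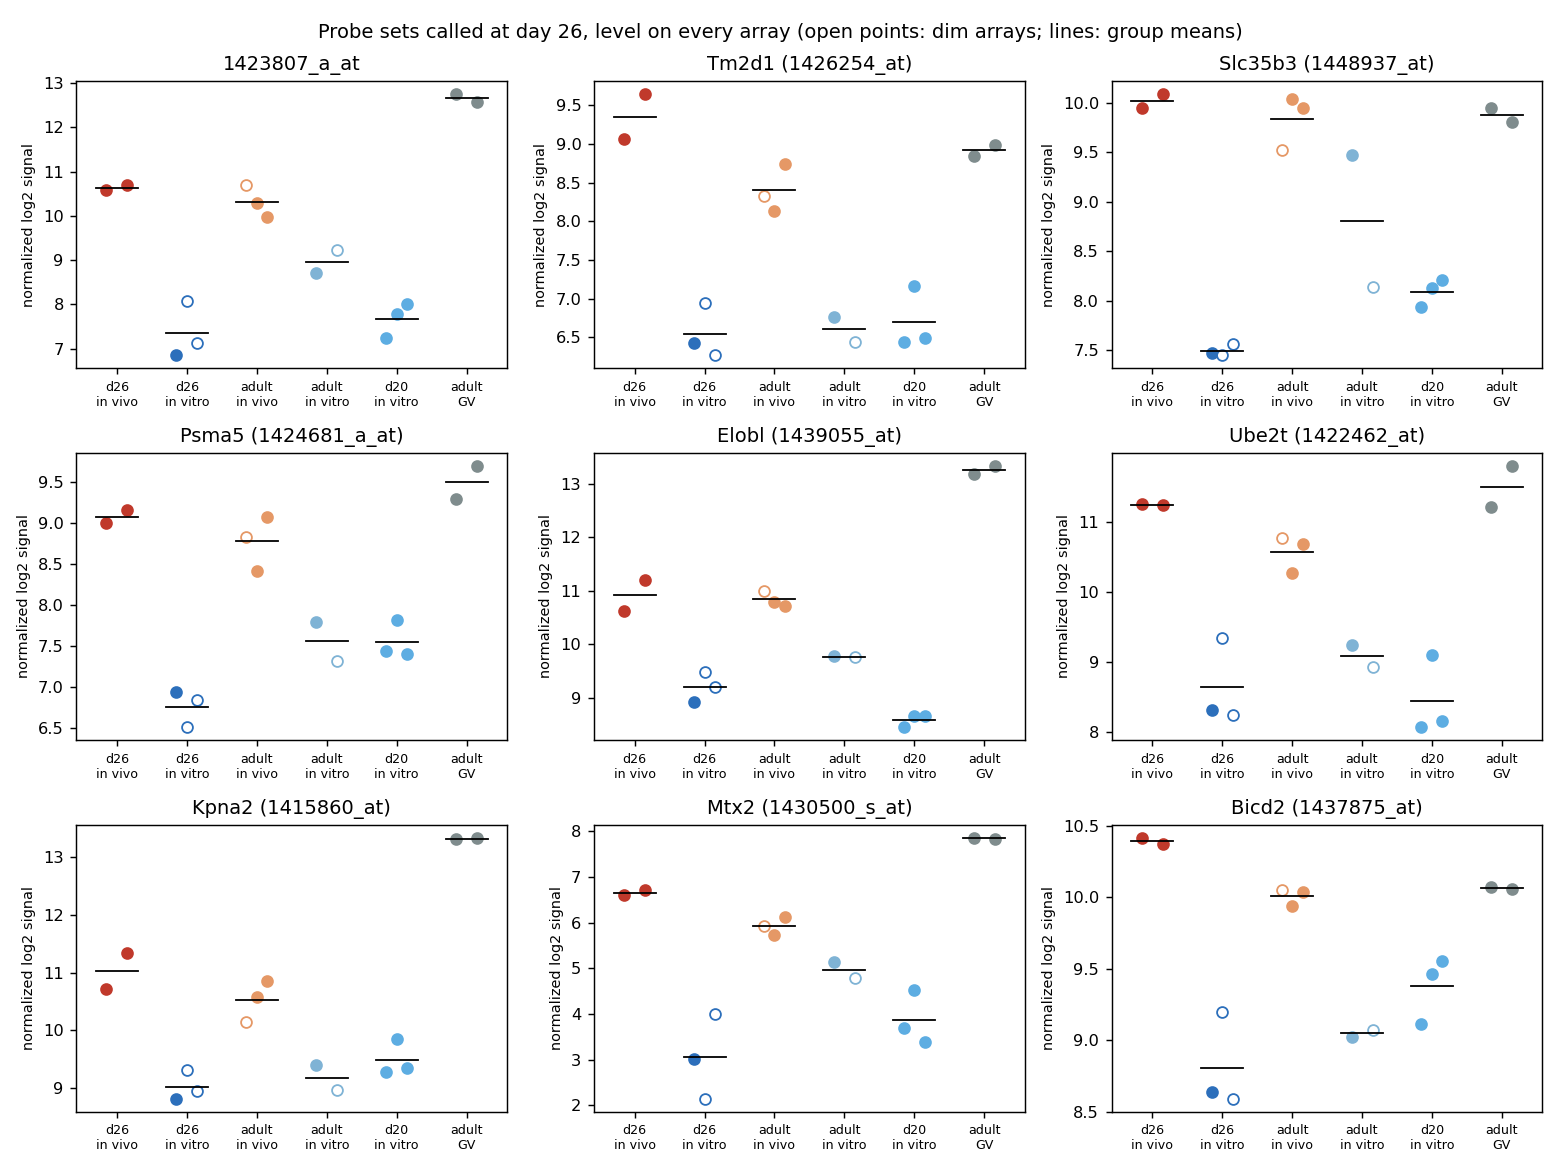
Levels (normalized log2 signal) of the 9 called probe sets on every array, d26 in vivo left of d26 in vitro, then adult in vivo, adult in vitro, d20 in vitro and adult GV oocytes. Points are arrays, open points are dim arrays and lines are group means. In all 9 panels both d26 in vivo arrays lie above the 3 d26 in vitro arrays, an order that the choice of called probe sets favours.

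With the 4 dim arrays of the series left out, 87 probe sets were called, all higher in vivo and 9 of them those called with all arrays, and their rises ran from 1.35 to 5.86. Without those arrays Bicd2 rose by 1.76, Ube2t by 2.93 and Tm2d1 by 2.92. That fit holds a single in vitro array at d26, assumed to vary like the other groups. Without either d26 in vivo array, 0 probe sets were called, and without d26 in vitro replicate 3, 2 were. Without the brighter d26 in vitro replicate 1, 9 were called, 4 of which were among the 9 called with all arrays.

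**Figure D2:**
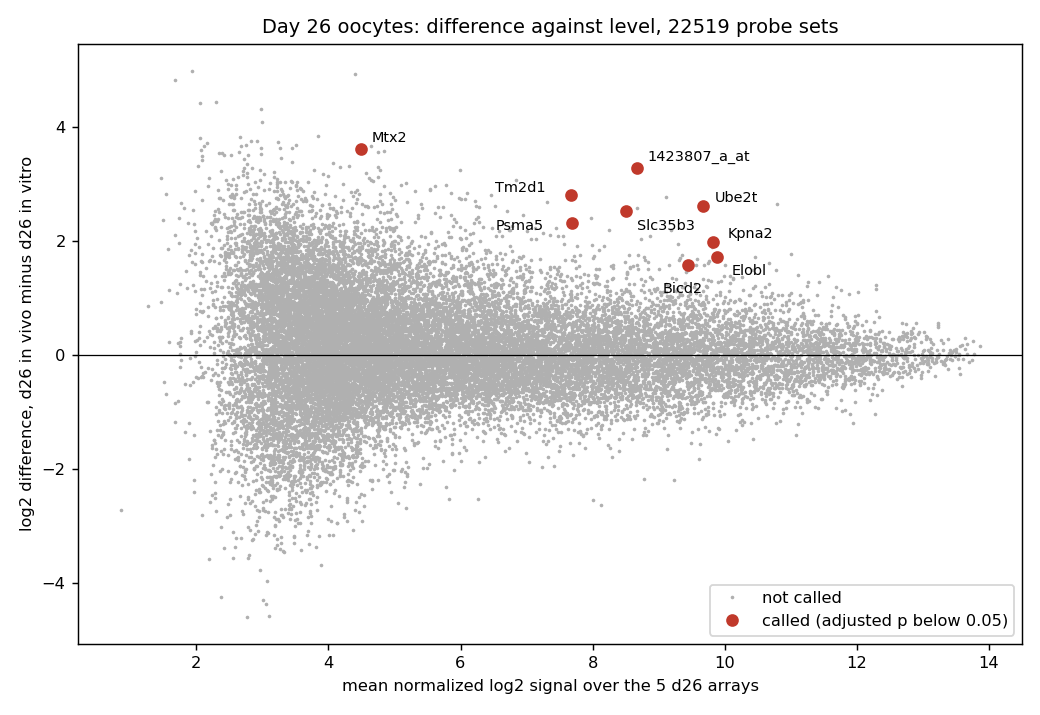
Difference (log2, d26 in vivo minus d26 in vitro) against the mean level over the 5 d26 arrays for the 22519 tested probe sets. Red points are the 9 called probe sets, all above 0, with rises from 1.59 (Bicd2) to 3.61 (Mtx2); grey points did not pass.

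Genes that came next in order of p did not pass, and their values are given as such. The rule required a difference of at least 1 in size with no overlap, which 6.52% of genes met higher in vivo and 3.77% met lower. The 12 higher in vivo with the smallest p include Psma5, given above. Ddx18, an RNA helicase of ribosome assembly, was at 7.93 and 7.74 in vivo, against 4.98, 4.49 and 5.94 in vitro (adjusted p = 0.0789). Nlrp14, an oocyte member of the NLR family, was at 11.39 and 11.94 in vivo, against 10.20, 10.10 and 10.20 in vitro (adjusted p = 0.0789). Ncaph, a condensin subunit, was at 9.19 and 9.76 in vivo, against 7.99, 8.17 and 7.38 in vitro (adjusted p = 0.0938). Each of the 3 had no overlap between groups. Mrpl22, a mitochondrial ribosomal protein, differed by 1.74, Pdcl3, a phosducin-like chaperone partner, by 1.66, and AU015836 by 1.94 (adjusted p from 0.0564 to 0.0938). Ndrg4 differed by 2.08, Nme2, a nucleoside diphosphate kinase, by 3.59, Slc10a7 by 4.42 and Ciart, a circadian repressor, by 4.31. In vitro arrays of the last 3 all lay below the filter level, so these sizes are imprecise. Tbc1d14, a regulator of autophagy and recycling endosomes, was at 12.86 and 13.11 in vivo, against 12.02, 11.90 and 11.58 in vitro.

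Of the 12 genes lower in vivo, Mki67 came closest to the threshold. Mki67, the proliferation marker that coats chromosomes in division, was at 8.80 and 8.24 in vivo, against 9.85, 10.43 and 10.71 in vitro, a difference of -1.81 (SE 0.31, limma adjusted p = 0.0565). Atp5a1, the alpha subunit of ATP synthase, was at 9.80 and 9.35 in vivo, against 10.47, 10.77 and 10.89 in vitro (adjusted p = 0.125). Usp30, a deubiquitinase of the mitochondrial outer membrane, was at 9.34 and 9.27 in vivo, against 10.35, 10.57 and 10.14 in vitro (adjusted p = 0.178). These 3 genes were bright in both groups and their arrays did not overlap. Limk1, a kinase of the actin regulator cofilin, differed by -2.01, and Trim44 by -1.16. Rtn4r, the Nogo receptor, differed by -2.39, Surf6, a nucleolar protein, by -2.43, Ccdc102a by -2.95 and 8430426J06Rik by -2.84. Rtf1, a subunit of the transcription elongation complex PAF1, differed by -4.58, 1700020G03Rik by -4.29 and Prm2, a protamine of sperm chromatin, by -3.68. Ccdc102a and the last 3 were below the filter level on both in vivo arrays, and adjusted p over these 12 genes ran from 0.0565 to 0.236.

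The lists of genes by function are described by counts, beside the same for all 12028 genes: the groups did not overlap for 11.2% of genes higher and for 8.90% lower in vivo, and the median difference was 0.08. Of the 49 tested genes of the spindle, kinetochore and checkpoint, 0 passed, 11 were higher and 2 lower in vivo without overlap, and the median difference was 0.45. Bub3, a checkpoint protein, was at 11.00 and 11.35 in vivo, against 9.82, 9.95 and 10.14 in vitro (adjusted p = 0.113). Pcnt, pericentrin of the spindle pole, was at 9.37 and 10.02 in vivo, against 8.46, 8.54 and 8.10 in vitro (adjusted p = 0.236). Both genes had no overlap. Aurkb, the chromosomal passenger kinase, had a difference of 2.79 (adjusted p = 0.357), with the dim replicate 2 below the filter level. Set against in vitro replicate 1 alone, the list's median lay 0.17 above that of all genes, and against the dim replicates 0.35 above it. The meiotic cell cycle and MII arrest list had 7 of 40 genes higher and 5 lower without overlap, 0 of which passed, and a median of 0.19. Relative to all genes that median was -0.04 against in vitro replicate 1 alone and 0.20 against the dim replicates. Cdk1, the kinase of maturation promoting factor, differed by 1.92 (adjusted p = 0.581), and Cdc25b, the phosphatase that activates it, by 2.08 (adjusted p = 0.687). The dim replicate 2 of Cdc25b lay below the filter level. Anapc5, a subunit of the anaphase promoting complex, was bright in both groups and differed by -0.70 (adjusted p = 0.482).

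Lists of protein synthesis and turnover come next. Of 41 cytosolic ribosomal protein genes, 0 passed, 9 were higher and 0 lower without overlap, and the median was 0.35. Rpl10a differed by 2.55, Rpl39 by 2.39 and Rps9 by 3.12 (adjusted p from 0.365 to 0.702). Each of these genes had in vitro values below the filter level, so the sizes are imprecise. Relative to all genes that list's median was 0.53 against in vitro replicate 1 alone and 0.08 against the dim replicates. Of 36 proteasome genes, 0 passed by the brightest probe set, 9 were higher and 2 lower without overlap, and the median was 0.30. Psmb4, a beta subunit, differed by 2.60 and Psmd12, a lid subunit, by 2.09 (adjusted p = 0.524 and 0.639). For both, the dim replicate 2 lay below the filter level, so the sizes are imprecise. The ubiquitin-conjugating E2 list had 1 of 29 genes called, Ube2t, and a median of 0.06, while Ube2c, the E2 of the anaphase promoting complex, differed by 1.94 (adjusted p = 0.329). Relative to all genes the E2 median was 0.18 against in vitro replicate 1 alone, where that of the proteasome list was 0.12. The elongin and cullin ligase list had 1 of 37 called, Elobl, with a median of -0.01. Relative to all genes that median was -0.08, and it was 0.07 with the values as deposited, so its sign turned with the scaling. Of its substrate receptors, Socs7 differed by 1.36 and Socs3 by 1.32 (adjusted p = 0.465 and 0.557). Fanconi and crosslink repair genes had 1 of 28 called, again Ube2t, with 6 higher and 1 lower without overlap and a median of 0.30. In that list the recombination protein Rad51c differed by 1.93 (adjusted p = 0.362).

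**Figure D3:**
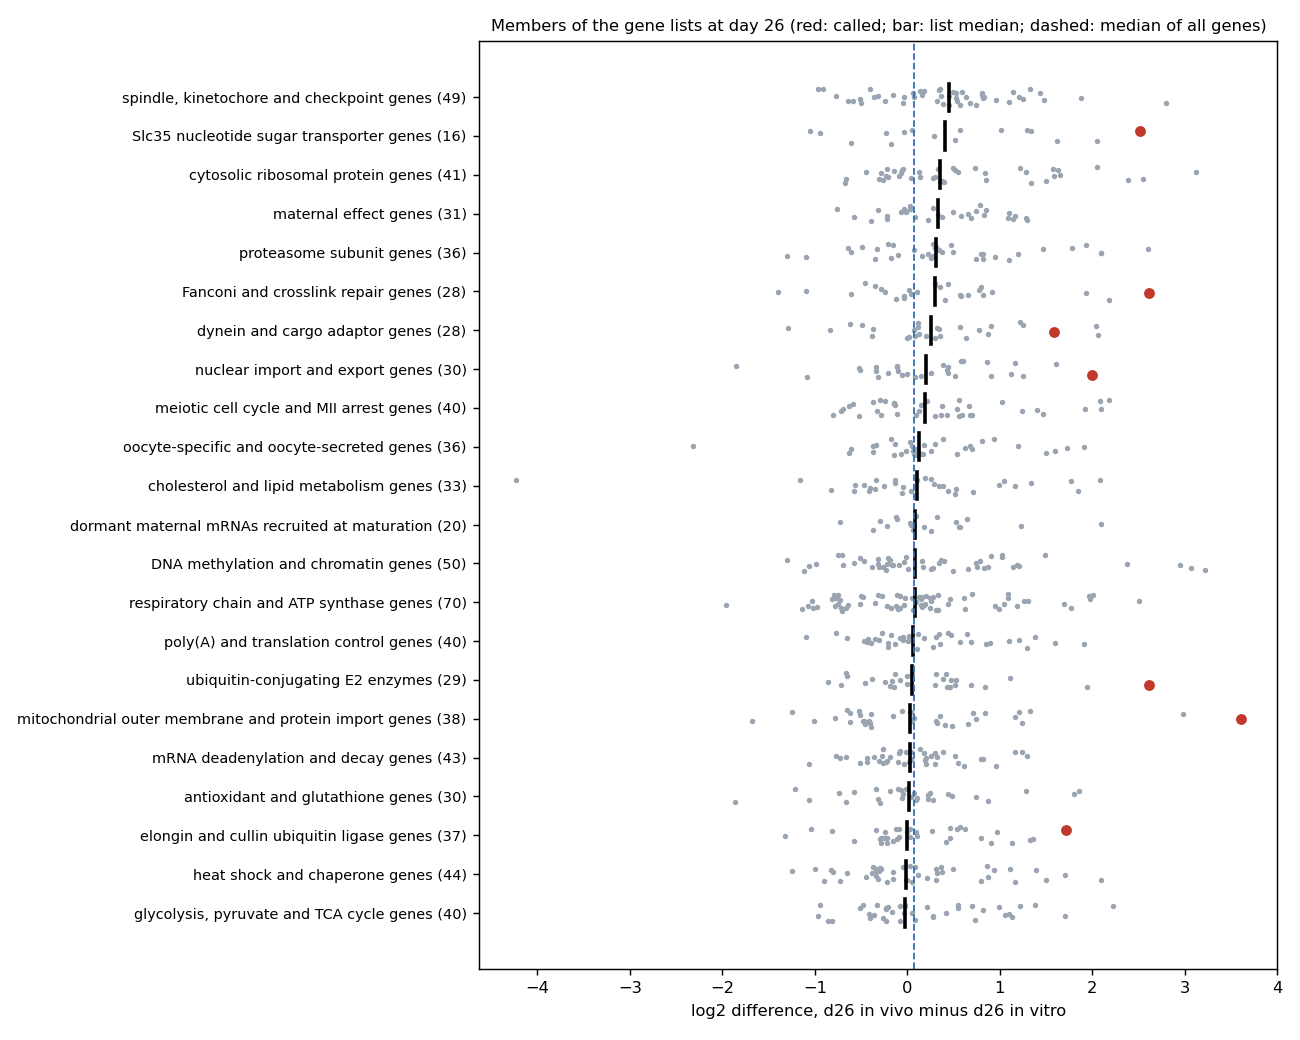
Difference (log2, d26 in vivo minus d26 in vitro) of every tested member of 22 gene lists, with the number tested in brackets. Red points passed, bars are list medians and the dashed line is the median of all genes, 0.08; medians run from 0.45 for the spindle list to -0.02 for glycolysis, pyruvate and the TCA cycle.

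Genes made by the oocyte for itself and the embryo did not pass. Of 31 maternal effect genes, which the embryo needs from the egg, 4 (12.9%) were higher without overlap, near the 11.2% of all genes, 1 was lower, and the median was 0.33. Relative to all genes that median was 0.06 against in vitro replicate 1 alone and 0.24 against the dim replicates. Ooep, a protein of the subcortical maternal complex, was at 10.14 and 10.30 in vivo, against 8.81, 9.44 and 9.12 in vitro (difference 1.10, adjusted p = 0.146). Nlrp5, another protein of that complex, was at 12.38 and 12.51 in vivo, against 10.87, 11.43 and 11.59 in vitro (difference 1.14, adjusted p = 0.236). Neither gene's groups overlapped. Dnmt1, the maintenance DNA methyltransferase, was at 12.79 and 12.72 in vivo, against 11.41, 12.78 and 11.74 in vitro, and the dim replicate 2 overlapped the in vivo arrays. Of 36 oocyte-specific and oocyte-secreted genes, 8 were higher and 2 lower without overlap, with a median of 0.12. Pabpc1l, the oocyte's poly(A)-binding protein, differed by 1.60 (adjusted p = 0.132) and Oas1c by 1.19 (adjusted p = 0.487). Among the 20 dormant maternal mRNAs that are translated as maturation proceeds, 4 were higher and 1 lower without overlap, with a median of 0.08. Plat, tissue plasminogen activator, differed by 1.22 and Bub1b by 0.56 (adjusted p = 0.714 and 0.767). The poly(A) and translation control list had 8 of 40 higher and 3 lower, with a median of 0.06, and the poly(A) polymerase Papola differed by 0.89 (adjusted p = 0.581). The deadenylation and decay list had 4 of 43 higher and 5 lower, with a median of 0.03, and the decapping enzyme Dcp2 differed by -0.72 (adjusted p = 0.747).

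Mitochondrial and metabolic lists showed no common direction. Of 70 respiratory chain and ATP synthase genes, 0 passed, 11 were higher and 14 lower without overlap, and the median was 0.08. Relative to all genes, that median was 0.24 against in vitro replicate 1 alone and -0.25 against the dim replicates, so its sign turned with the arrays used. Ndufa9, of complex I, differed by 1.70 and Uqcrfs1, the Rieske protein of complex III, by 1.77 (adjusted p = 0.486 and 0.514). Of 38 mitochondrial outer membrane and import genes, Mtx2 passed, 8 were higher and 3 lower without overlap, and the median was 0.03. In that list the import chaperone Timm10 differed by 2.98 and the fission GTPase Dnm1l by -1.01 (adjusted p = 0.383 and 0.479). The dim replicate 2 of Timm10 lay below the filter level, so the size of its difference is imprecise. Glycolysis, pyruvate and TCA cycle genes had 4 of 40 higher and 6 lower, with a median of -0.02, and Pgd, of the pentose phosphate pathway, differed by -0.95 (adjusted p = 0.416). Antioxidant and glutathione genes had 1 of 30 higher and 3 lower, with a median of 0.01, and Sod2, the mitochondrial superoxide dismutase, differed by -0.74 (adjusted p = 0.678). Heat shock and chaperone genes had 7 of 44 higher and 5 lower, with a median of -0.01. Dnaja1, a cochaperone of Hsp70, was at 10.90 and 10.76 in vivo, against 9.25, 9.75 and 9.30 in vitro (difference 1.40, adjusted p = 0.131), while the mitochondrial chaperonin Hspd1 differed by -0.90 (adjusted p = 0.416). Hspa5, the chaperone of the endoplasmic reticulum, differed by 2.09 (adjusted p = 0.482).

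In the remaining lists Bicd2, Kpna2 and Slc35b3 were the calls. Dynein and cargo adaptor genes had Bicd2 called, 4 of 28 higher and 4 lower without overlap, and a median of 0.25. Relative to all genes that median was -0.07 against in vitro replicate 1 alone and 0.34 against the dim replicates. Its sign thus turned with the arrays used. Spdl1, a dynein adaptor at kinetochores, differed by 1.25 (adjusted p = 0.537). Nuclear import and export genes had Kpna2 called, 3 of 30 higher and 1 lower, and a median of 0.20. Relative to all genes it was 0.17 against in vitro replicate 1 alone and -0.04 against the dim replicates. Ranbp1, a partner of the GTPase Ran, differed by 1.12 and Ran itself by -0.52 (adjusted p = 0.577 and 0.702). Slc35 nucleotide sugar transporters had Slc35b3 called, 3 of 16 higher and 2 lower, and a median of 0.40. Relative to all genes it was 0.10 against in vitro replicate 1 alone and 0.65 against the dim replicates. DNA methylation and chromatin genes had 6 of 50 higher and 4 lower, with a median of 0.08. Cbx5, heterochromatin protein 1 alpha, differed by 3.07 (adjusted p = 0.397). Both dim replicates of Cbx5 lay below the filter level, so the size of its difference is imprecise. Cholesterol and lipid metabolism genes had 5 of 33 higher and 1 lower, with a median of 0.11, and Mvd, mevalonate decarboxylase, differed by -4.24 (adjusted p = 0.524) from in vivo arrays below the filter level.

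The 9 called probe sets were then read in the other groups. In adults, whose 5 arrays are separate from those at d26, the difference between in vivo and in vitro maturation had the same sign for 9 of the 9, with no overlap between arrays, and the differences ran from 1.59 to 3.61 at d26, against 0.95 to 1.80 in adults. For 8 of the 9 the adult unadjusted p was below 0.05, Mtx2 being the exception, while none passed after adjustment. The fit shares its estimate of spread over all groups. A small spread that favoured a d26 call thus also favours a small adult p and no overlap. Over all 22519 probe sets 5.23% were higher in adult in vivo oocytes at that unadjusted threshold, and 9.56% had no overlap with the in vivo arrays higher. The adult comparison called 1 probe set (0.00444%), which is not among the 9, and the difference between ages called 0 (0.00%) by limma, with 353 and 487 probe sets at an unadjusted p below 0.05 in each direction. For Mtx2 the d26 difference exceeded the adult one by 2.66, the most among the 9, and for Bicd2 by 0.63, with adjusted p of 1.00 for both. Ube2t averaged 10.58 in adult in vivo oocytes, against 9.08 in adult in vitro oocytes. Tm2d1 averaged 8.40 in adult in vivo oocytes, against 6.60 in adult in vitro oocytes, a difference of 1.80, the highest of the 9 in adults. Tbc1d14 was otherwise: its difference was 1.15 at d26, against -0.09 in adults (adjusted p of the difference 1.00).

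**Figure D4:**
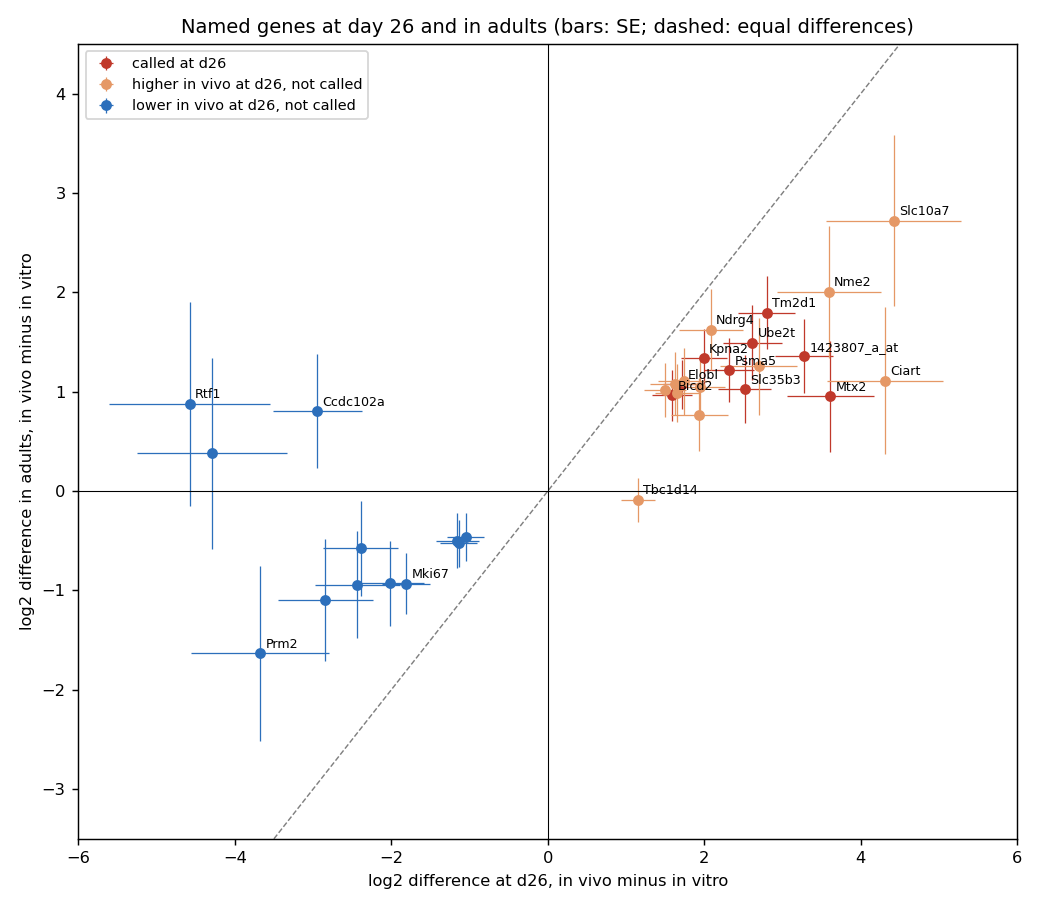
Difference (log2, in vivo minus in vitro) at d26 on the horizontal axis and in adults on the vertical axis, for the 9 called probe sets and the 12 genes nearest to passing in each direction; bars are SE and the dashed line marks equal differences. All 9 called probe sets (red) are above 0 on both axes, while Rtf1, 1700020G03Rik (unlabelled) and Ccdc102a are below 0 at d26 and above it in adults, and Tbc1d14 is near 0 in adults.

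Across the 12028 genes, which are not independent replicates, the differences at the 2 ages correlated with a Pearson r of 0.26 and a Spearman rho of 0.32, and 65.2% of genes had the same sign. The 5 genes with the smallest p for a difference between ages did not pass. Myo7b, an unconventional myosin, was at 3.16 and 4.60 in vivo, against 5.25, 6.06 and 6.43 in vitro at d26, while in adults its means were 5.29 in vivo, against 2.67 in vitro (adjusted p of the difference 0.548). Crx, a photoreceptor transcription factor, had a d26 difference of -1.85, against 3.19 in adults, and 1700051A21Rik had -2.50, against 3.71 (both adjusted p = 0.548). Wdtc1 differed by -0.06 at d26, against 4.52 in adults, where its in vitro mean was 1.06 (adjusted p = 0.846). Ccdc102a differed by -2.95 at d26, against 0.81 in adults (adjusted p = 0.965).

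The GV oocytes show where the called transcripts stood before maturation in adults; no GV oocytes of d26 females are used here. The adult GV mean exceeded the d26 in vivo mean for 6 of the 9 called probe sets, and the share over all probe sets is not given here. Kpna2 averaged 11.02 in d26 in vivo and 9.03 in d26 in vitro oocytes, and 13.31 in adult GV oocytes. Elobl averaged 10.92 in d26 in vivo and 9.20 in d26 in vitro oocytes, and 13.26 in adult GV oocytes. Both were thus highest in GV oocytes and lowest after culture among these 3 groups. Slc35b3 and Bicd2 had means of 10.02 and 10.40 in d26 in vivo oocytes, 7.50 and 8.81 in d26 in vitro oocytes, and 9.88 and 10.07 in GV oocytes, so GV and in vivo oocytes lay close together and cultured ones below. In d20 in vitro oocytes 9 of the 9 called probe sets averaged below d26 in vivo oocytes, with Ube2t at 8.43 and Mtx2 at 3.87. The choice of called probe sets favours this order, because the same d26 in vivo arrays made the calls. The share over all probe sets is not given here. Genes at least 2 higher in adult GV than in adult in vivo oocytes (1460 genes) had a median d26 difference of 0.24, and genes at least 2 lower (809 genes) a median of -0.28, beside 0.08 for all genes.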

How the data were processed

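Pools of 150 oocytes were measured on 15 Affymetrix arrays. The deposited intensities for 45101 probe sets came from MAS5 according to the submitters' processing notes. Its scaling is not given in the sources used. Groups follow the age and maturation in the labels. Members and gene lists were chosen with earlier results of these data known. The 64 control probe sets were left out, log2 intensities were quantile normalized over all arrays, and the 22519 probe sets in the upper 50% by mean (level 3.07) were tested. With limma 3.58.1 in R 4.3.3, 6 group means were fitted, with moderated variances following an intensity trend, 9 residual degrees of freedom and Benjamini-Hochberg adjustment over all probe sets. The number of arrays limits the precision. Calls have an adjusted p below 0.05. The code was tested on simulated data.

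Symbols came from the platform annotation, updated through the RefSeq table of GRCm38.p6 for 34754 of 34958 single-symbol probe sets; 932 had several symbols and 9211 none. A gene is represented by its brightest tested probe set. Named were every call, the 12 genes of smallest p in each direction with a difference of at least 1 and no overlap, up to 3 members of each list and 5 genes for the difference between ages. Alternatives were other normalizations and filters, a pseudocount of 16, other variance models, fewer arrays and each array left out.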

Additional observations from a re-analysis of the deposited data

How the results depend on the processing

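The 9 calls at d26 kept their direction in all 28 settings tried, but their number did not hold. It was 0 with the values as deposited (median shift of all probe sets 1.11), with quantile normalization over the 5 d26 arrays, with those 5 arrays fitted alone and without an intensity trend in the variances. It was 36 with median scaling (all higher in vivo, median shift 0.45), 48 with array weights (45 higher, 3 lower), 16 with array brightness as a covariate (15 higher, 1 lower) and 87 without the dim arrays, all higher. The 13 MII arrays fitted alone gave 5, and quantile normalization over those 13 arrays, chosen after seeing the data, gave 1. No filter gave 7, the upper 30% gave 13 and a pseudocount of 16 gave 9. Leaving out each array gave 0 to 20: 0 without d26 in vivo replicate 1 or 2, 2 without d26 in vitro replicate 3, 5 without either GV array, 17 without adult in vivo replicate 1 and 20 without d26 in vitro replicate 2. A lone array left in a group is assumed to vary like the other groups. The limma adjusted p of the unnamed probe set ran from 0.000112 to 0.628 and that of Bicd2 from 0.00939 to 0.91.

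The adult count of 1 became 0 with the values as deposited, with the upper 30%, with array weights and with array brightness as a covariate, 5 without a trend and 122 without the dim arrays, and ran from 0 to 412 leaving out each array, the highest without adult in vitro replicate 1. The count of 0 for the difference between ages ran from 0 to 25, the highest without the same array. The causes were not tested. Among values for single genes under the alternatives, 2378 kept their side of the threshold, 100 lost the call and 54 gained it. The 100 lost calls all belong to the called probe sets, each read in 28 settings, and most of the 2378 values had no call to lose. Of values with a call, 0 reversed direction. A change of sign in a value without a call was not counted as a reversal. No paired analysis was possible because the labels give no shared replicate numbers.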

Other observations

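Without the dim arrays, 76 distinct genes were called higher in d26 in vivo oocytes, and the examples here were chosen after their values had been seen. In most of the called probe sets all 3 in vitro arrays, the dim ones included, lay below both in vivo arrays, beside 2495 of all 22519. The calls rest on the same in vivo arrays and in vitro replicate 1, which favours that order. Dnmt1, the maintenance DNA methyltransferase, was called on 3 probe sets, with rises of 1.35, 1.52 and 1.95 by limma (adjusted p = 0.0174, 0.0319 and 0.0188). With all arrays the differences of these probe sets were 0.78, 0.92 and 1.57 (adjusted p = 0.653, 0.684 and 0.0565), and for the first and second the dim in vitro arrays did not both lie below the in vivo arrays. Cetn2, a centriole protein, averaged 8.93 in vivo, against 5.64 on in vitro replicate 1 and a mean of 6.54 on the dim in vitro arrays. Atp6v1g1, a subunit of the vacuolar proton pump, averaged 10.22 in vivo, against 7.07 on in vitro replicate 1 and a mean of 7.93 on the dim in vitro arrays. Mis18a, which licenses centromeres for new CENP-A, averaged 12.38 in vivo, against 8.95 on in vitro replicate 1 and a mean of 10.12 on the dim in vitro arrays. The adult differences of these 3 genes were 2.61, 1.99 and 1.24, all higher in vivo. Most of the called probe sets were higher in adult in vivo oocytes, beside 51.3% of all 22519. Most also had an adult GV mean above the d26 in vivo mean, and the share over all probe sets is not given here.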
